A study of Rattus norvegicus with 6 samples.

Results

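The genes described here are those that the deposited rat expression table assigns to the KEGG pathway "Ribosome biogenesis in eukaryotes", without Nop2 and without genes whose symbol begins with Eif. The rule kept 83 of the 32623 genes in the table. Of these, 71 had a mean FPKM (fragments normalised by gene length and library size) of at least 0.5 over the samples and were tested, and 12 were not. Total RNA from the myocardium of wild-type male rats was sequenced for 3 sham samples and for 3 samples taken after 30 min of ischemia. In the ischemia group a ligature had been tied on the left anterior descending coronary artery (LAD) of ventilated, anesthetized animals after opening the chest on the left, whereas the sham samples, whose labels also carry the 30 min, are labelled sham without their own protocol. The methods of the study name a sham operation with an injection of vehicle for its reperfusion experiment. The strain and the age were not stated in the sources used here. The labels number the samples from 1 to 3 within each group but do not state that each came from a separate animal, so the p-values measure the spread between these samples. The model is a single time point without reperfusion, and the piece of heart that was sampled was not described.

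Ribosomes are built in the nucleolus, where RNA polymerase I transcribes a long precursor of the ribosomal RNAs. Small nucleolar ribonucleoproteins of the box C/D and box H/ACA classes modify this precursor, and a large particle on its leading end, the small subunit processome, folds and cleaves it. Separate sets of GTPases, ATPases and nucleases finish the small and the large subunit, which leave the nucleus with the help of Ran and exportins. In the heart this pathway is best known for its part in hypertrophic growth, when cardiomyocytes enlarge and make more ribosomes.

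Most genes of the pathway were at higher levels in the ischemic samples. Of the 71 tested genes, 22 were called, that is, passed an adjusted p of 0.05 in the quasi-likelihood test of edgeR as higher in ischemia, which is 31% against 5.18% of all 13964 tested genes. None was called lower, against 1.53% of all tested genes. At an unadjusted p under 0.05, 48 members were higher (67.6%, against 18.2% of all tested genes) and 2 were lower, Drosha and Csnk2a1 (against 14.2%). DESeq2 called 42 higher, against 14.8% of all tested genes, and the same pair lower, against 12.5%. The log2 fold change (ischemia minus sham) was above 0 in 65 members, which is 91.5% against 49.9% of all tested genes. Its median over the members was 0.86, with an interquartile range from 0.50 to 1.32, whereas the median over all tested genes was -0.0015, with an interquartile range from -0.56 to 0.57.

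**Figure D1:**
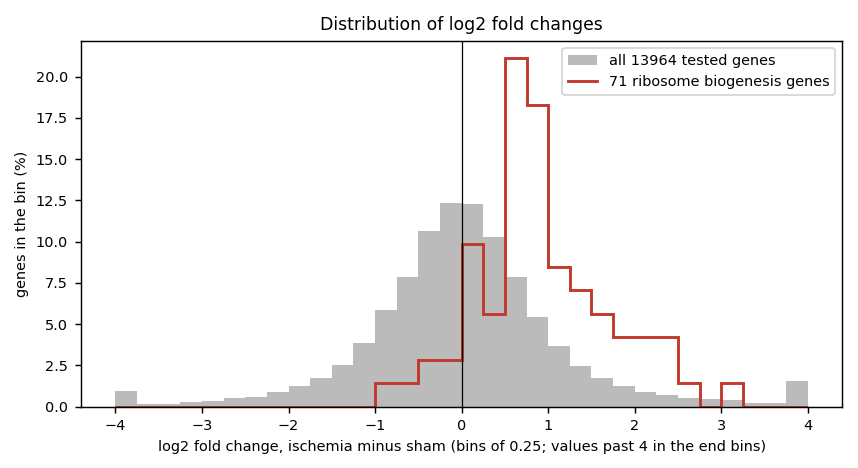
Distribution of log2 fold changes (ischemia minus sham, x axis, bins of 0.25, with values past 4 placed in the end bins) as a percentage of genes (y axis) for the 71 tested ribosome biogenesis genes (red line) and for all 13964 tested genes (grey bars). The ribosome biogenesis genes are shifted to the right of zero, with a median of 0.86 against -0.0015, and none lies below -1.

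The spread between samples was set beside these counts. In 50 members the 3 ischemia values of CPM (counts normalised to library size, here after scaling by the trimmed mean of M-values) all lay above the 3 sham values, which is 70.4% against 22% of all tested genes. In 3 members, Gnl3l, Drosha and Csnk2a1, they all lay below, which is 4.23% against 19.1%, and in the remaining 18 members the groups overlapped. All 22 called members were among the 50. The deviations were present in each ischemia library: 56 members in ischemia replicate 1, 58 in replicate 2 and 57 in replicate 3 lay above every sham sample, which is 78.9%, 81.7% and 80.3%, against 30.6%, 41.6% and 35.7% of all tested genes. Without the ribosomal RNA genes, members took 0.197%, 0.158% and 0.198% of all counts in the sham samples and 0.295%, 0.408% and 0.328% in the ischemia samples, in the order of their replicate numbers, which is also the order of all values below.

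Each sample held between 68529126 and 79591989 counts. At this depth 3 counts correspond to 0.0377 to 0.0438 CPM before scaling, a floor that covers counting error only. Libraries differed in ways the groups do not explain. Sham replicate 1 had 161 counts on all genes of the Y chromosome together, against 3218 to 8970 in the other libraries, although the labels describe male rats. Cardiomyocyte markers were abundant in every sample, with a summed FPKM (7 of 8 listed genes in the table) of 24484 to 40532 in sham and 11702 to 22006 in ischemia. Of these 7 genes, Myh6, Actc1 and Ryr2 were lower in every ischemia sample than in every sham sample (log2 fold changes -2.38, -1.70 and -1.51), not called by edgeR (adjusted p = 0.0510, 0.0536 and 0.0696) but called by DESeq2, and the other 4 overlapped. Atrial markers (5 of 5) summed to 48344 and 39345 in sham replicates 1 and 3 but to 215.5 in sham replicate 2, and to 1279 to 9610 in ischemia. Their log2 fold changes ran from -2.42 for Nppa to -7.50 for Bmp10, with no call by edgeR. Only Bmp10 was lower without overlap, at 304, 70 and 13664 counts in sham and 53, 21 and 8 in ischemia. Neutrophil and monocyte markers (16 of 17) summed to 142.5 to 198.4 in sham and to 1307, 8637 and 2039 in ischemia replicates 1 to 3. Of the 14 tested markers of these cells 11 were called higher, and Retnlg had no count in any sham library. Endothelial markers (4 of 5) summed to 134.7 to 160.9 in all libraries with no call. Fibroblast markers (4 of 5) summed to 330.5 to 1125 in sham and 171.6 to 414.0 in ischemia, and Lum and Col1a1 were lower without overlap (log2 fold changes -2.70 and -2.22), not called by edgeR (adjusted p = 0.0510 and 0.116) but called by DESeq2. Lymphocyte markers (4 of 4) summed to 4.02 to 5.50 in sham and 9.51 to 11.2 in ischemia, and the 3 that were tested were higher without overlap. None of them was called by edgeR, and Cd3g and Cd3e were called by DESeq2. Airway markers (2 of 2) summed to 401.0 in ischemia replicate 1 and to at most 15.1 in any other library, with 18366 counts on Scgb1a1 in ischemia replicate 1. Erythroid markers (3 of 3) overlapped between the groups. The part of these markers in the results was not tested, and in tissue RNA a change in the number of cells of a type and a change in the RNA per cell cannot be told apart.

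The number of calls depended on single libraries. With any sham replicate or ischemia replicate 3 left out, no gene of the whole table passed the adjusted threshold, and 38 to 41 members were higher at an unadjusted p under 0.05, against 12.7% to 15.2% of all tested genes. Without sham replicate 1, the library with few Y-chromosome counts, 40 members were higher at that level (against 12.7% of all tested genes), 54 did not overlap on the higher side (against 25.2%) and the median log2 fold change was 0.91. Without ischemia replicate 2, which had the highest myeloid marker sum, 15 members were called, all of them among the 22 (against 3.31% of all tested genes), and the median log2 fold change was 0.69. Without ischemia replicate 1, 37 members were called, against 10.7% of all tested genes.

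Promoter sequences were examined because many members moved together. Promoters of 300 bases (250 before to 50 after the annotated start, RefSeq, assembly GRCr8) were found for 61 of the 83 members, 56 of them tested. The E-box CACGTG, a palindrome that reads the same on both strands and is the letter sequence bound by Myc-Max and related factors, was present in 15 of the 56 (26.8%), against 6.65% of all 27457 promoters and 9.42% of the 9696 promoters of tested genes. It was present in 7 of 17 promoters of called members (41.2%) and in 8 of 39 of members not called (20.5%). Among all genes called higher, 14.6% of 535 promoters held it. The CCAAT box (CCAAT, both strands) was present in 35.7% of the members' promoters against 37.4% of those of tested genes, the GC box (GGGCGG, both strands) in 69.6% against 62.5%, and the TATA box (TATAAA, both strands) in 3.57% against 7.13%. No searched motif contains another. The median GC content was 59.2% for the members and 61% for promoters of tested genes. A match is a run of letters and does not show that a factor was bound there.

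The E-boxes of the 7 called members are shown because these are the members in which the call and the motif coincide. Each line gives 30 bases on the strand of the gene, in GRCr8 coordinates, with the E-box in capitals.
Rcl1, chr1:236238114-236238143, plus strand: cctgttctaaacCACGTGgacgcgtcgggg
Fbl, chr1:92597416-92597445, plus strand: ggcgcttttttcCACGTGtgaaagcctgag
Ran, chr12:33314463-33314492, minus strand: gctcgctcgtctCACGTGacccgccgcacc
Utp4, chr19:51702204-51702233, plus strand: tgcgcacgcgcgCACGTGggaccggggcgg
Dkc1, chrX:157751455-157751484, plus strand: agcgtcccggcgCACGTGcgggccccaccc
Nat10, chr3:110604801-110604830, minus strand: tcagcgctagccCACGTGctgccacttgag
Nol6, chr5:61066289-61066318, minus strand: ggcgtttaggccCACGTGgggagctacggg
Counted from the annotated start, where the first transcribed base is 1, the first base of the E-box lay at 12 in Rcl1, 22 in Fbl and 12 in Nat10, and upstream at -2 in Nol6, -25 in Utp4, -184 in Dkc1 and -190 in Ran. These 7 genes, described in turn below with their group, encode proteins of several complexes of the pathway.

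Box C/D ribonucleoproteins, which guide methylation of ribose in ribosomal RNA, lay above sham without overlap in all 5 tested members (against 22% of all tested genes). Of these 3 were called (against 5.18%), and the median log2 fold change was 1.58. Fbl (fibrillarin, the methyltransferase, chromosome 1, positions 85103519 to 85112619 as the table lists them) had FPKM of 23.7, 18.7 and 24.9 in sham and 69.9, 110.5 and 86.5 in ischemia. Every ischemia sample was thus far above every sham sample, with a 3.73-fold change (log2 fold change 1.90, SE 0.19, adjusted p = 0.0246). Nop56, a scaffold protein of the particle, rose from 17.0, 13.3 and 16.2 to 35.6, 59.6 and 52.6 (log2 fold change 1.58, adjusted p = 0.0281). Its partner Nop58 varied most, at 11.7, 52.0 and 21.8 FPKM in ischemia, with 6.16, 1.84 and 6.11 in sham. The groups did not overlap, but with this spread the log2 fold change of 2.53 (SE 0.62) did not pass the test (adjusted p = 0.0586). Snu13, which binds the guide RNA first, was the most abundant member at 73.3, 61.6 and 72.8 FPKM in sham and rose to 113.0, 127.7 and 116.5 (log2 fold change 0.70, SE 0.14, adjusted p = 0.0440). Fbll1, a fibrillarin-like gene, had 22, 0 and 117 counts in sham and none in ischemia, and was too low to be tested.

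Box H/ACA ribonucleoproteins, which convert uridine to pseudouridine, were higher in the pseudouridine synthase and in Gar1 but not in all partners. Dkc1 (dyskerin, the catalytic subunit) had FPKM of 22.3, 23.0 and 28.7 in sham and 50.4, 60.7 and 54.7 in ischemia (log2 fold change 1.07, SE 0.17, adjusted p = 0.0332). Gar1, a small subunit that binds dyskerin, rose from 4.69, 4.32 and 5.52 to 15.0, 27.6 and 21.0 (log2 fold change 2.03, SE 0.25, adjusted p = 0.0272). The groups were separate for both genes, with a 4.09-fold change for Gar1 and a 2.10-fold change for Dkc1. Nop10, the smallest protein of the complex and its most abundant transcript here, had 105.8, 86.4 and 106.4 FPKM in sham and 136.1, 102.3 and 115.7 in ischemia, and the groups overlapped (log2 fold change 0.17, SE 0.19, adjusted p = 0.545).

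The fourth protein of the complex, Nhp2, stands in the table as a pair of rows, Nhp2 (chromosome 10, positions 34975708 to 34979082) and LOC103690013 (chromosome 10, positions 37069344 to 37072733), which the table gives the same orthology group. Nhp2 had 0, 0 and 1029 counts in sham and 3498, 2894 and 2350 in ischemia. LOC103690013 had 931, 850 and 0 counts in sham and 2084, 3235 and 2599 in ischemia. In sham, therefore, each library had all of its reads on 1 of the rows, and in ischemia each library had reads on both. Neither row passed the test alone (log2 fold change 3.03, SE 2.10, adjusted p = 0.342 for Nhp2, and 2.06, SE 1.5, adjusted p = 0.364 for LOC103690013), and both values are uncertain. How reads were divided between the rows was not tested. Over the alternatives described below, other than limma with pseudocounts of 0.01 and 1, the fitted value ran from 2.44 to 14.46 for Nhp2. Its highest value came without sham replicate 3, where no sham count was left. For LOC103690013 the fitted value ran from 1.47 to 3.986, and neither row passed alone under any of these alternatives. The sequences of the rows were not compared. The sum of the rows was 931, 850 and 1029 counts in sham and 5582, 6129 and 4949 in ischemia. Fitted as 1 gene, a choice made after seeing the data, it changed 5.61-fold (log2 fold change 2.49, SE 0.16, adjusted p = 0.00971), and 23 of the then 70 tested members were called, against 5.19% of all tested genes.

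**Figure D2:**
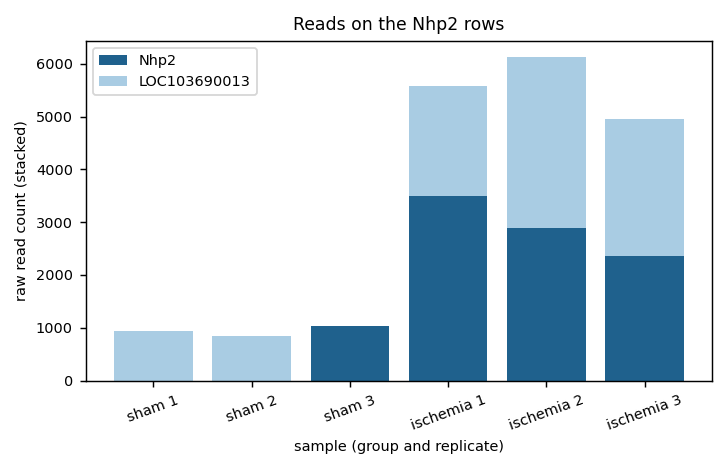
Raw read counts (y axis) on the Nhp2 row (dark) and the LOC103690013 row (light), stacked, in each of the 6 samples (x axis). Sham libraries carry reads on a single row each, with sums of 850 to 1029, and ischemia libraries carry reads on both, with sums of 4949 to 6129.

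The UtpA complex, the first to join the growing precursor RNA, had all 5 members above sham without overlap (against 22% of all tested genes). Of these 3 were called (against 5.18%), and the median log2 fold change was 1.09. Heatr1 (listed as LOC108348069, a large scaffold protein also needed for polymerase I transcription) had FPKM of 0.641, 0.693 and 0.668 in sham and 2.23, 5.31 and 3.25 in ischemia (log2 fold change 2.31, SE 0.33, adjusted p = 0.0291). Sham samples lay close together, while the ischemia samples were spread widely, all above sham. Wdr43 rose from 6.76, 4.57 and 6.69 to 11.7, 31.3 and 20.9 (log2 fold change 1.74, adjusted p = 0.0418). Utp4, known as cirhin, was the most abundant member and changed from 11.3, 9.66 and 10.8 to 20, 28.3 and 23.9 (log2 fold change 1.09, SE 0.17, adjusted p = 0.0316).

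The UtpB complex, which follows UtpA on the precursor, lay above sham without overlap in all 6 members (against 22% of all tested genes). Of these 3 were called (against 5.18%), and the median log2 fold change was 1.23. Pwp2, a WD-repeat core protein, had FPKM of 4.66, 4.45 and 5.49 in sham and 15.6, 22.9 and 18.6 in ischemia, a 3.66-fold change (log2 fold change 1.87, SE 0.18, adjusted p = 0.0246). Wdr36 rose from 4.28, 3.69 and 4.40 to 9.10, 15.5 and 11.2 (log2 fold change 1.44, adjusted p = 0.0303). Tbl3 rose from 6.48, 6.33 and 6.96 to 13.6, 17.5 and 14.9 (log2 fold change 1.12, adjusted p = 0.0303). The other members of the complex, Utp18, Wdr3 and Utp6, had log2 fold changes of 1.31, 1.15 and 0.85, above the sham samples in every ischemia sample but not called.

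Among further factors of the small subunit processome, 5 of 8 tested were called, against 5.18% of all tested genes called higher. Rcl1 (chromosome 1, positions 247228061 to 247305693), a cyclase-like protein that acts in cleavage of the precursor, had the largest change of any called member. Its FPKM was 4.68, 6.66 and 6.08 in sham and 33.8, 33.5 and 38.3 in ischemia, a 5.63-fold change (log2 fold change 2.49, SE 0.26, adjusted p = 0.0248). Unlike Nop58 or Wdr43, its ischemia values lay close together. Utp14a rose with a log2 fold change of 1.31 (adjusted p = 0.0446) and Tcof1 (treacle, which links polymerase I to processing) with 0.86 (adjusted p = 0.0482). Emg1 and Nat10, enzymes that methylate and acetylate the small subunit RNA, both rose with a log2 fold change of 0.98 (adjusted p = 0.0351 and 0.0379). Emg1 was at 15.1, 14.7 and 14.2 FPKM in sham and 30.7, 33.0 and 29.3 in ischemia, and Nat10 at 4.17, 4.05 and 4.13 against 7.85, 9.12 and 9.09. Fcf1, a nuclease of the processome and the most abundant of these genes, was above the sham samples in every ischemia sample without a call (log2 fold change 0.73, adjusted p = 0.0708).

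The Mpp10 complex had no called member among its 3, against 5.18% of all tested genes called higher. Mphosph10, its largest protein, had FPKM of 4.94, 2.71 and 4.20 in sham and 5.32, 21.1 and 10.5 in ischemia, with ischemia replicate 1 close to sham (log2 fold change 1.55, SE 0.47, adjusted p = 0.0880). Imp4 was at 26.2, 31.2 and 28.1 FPKM in sham and 45.6, 41.2 and 43.0 in ischemia (log2 fold change 0.50, SE 0.21, adjusted p = 0.153). Its groups were separate in FPKM but overlapped in scaled CPM.

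Of the UtpC complex and its protein kinase CK2, with 5 tested members, 1 was called, against 5.18% of all tested genes called higher. This was Nol6, the core protein of UtpC, which rose from 6.38, 6.86 and 7.01 FPKM to 13.2, 13.3 and 15.4 (log2 fold change 0.95, SE 0.19, adjusted p = 0.0445). Csnk2a1, a catalytic subunit of CK2, had 55.7, 28.8 and 43.7 FPKM in sham and 26.5, 28.3 and 21.2 in ischemia, the lowest log2 fold change of all members (-0.82, SE 0.21, adjusted p = 0.0643). In FPKM, sham replicate 2 was barely above ischemia replicate 2. In scaled CPM, sham replicate 2 stood at 59.6, against 45.2, 44.4 and 37.7 in ischemia. Csnk2a2, the second catalytic subunit, had a log2 fold change of 0.22 (adjusted p = 0.516). Csnk2b, the regulatory subunit, had 51.8, 75.6 and 59.1 FPKM in sham and 75.9, 66.2 and 70.5 in ischemia (log2 fold change 0.07, adjusted p = 0.866). CK2 acts on many substrates outside the nucleolus, and the pathway annotation does not separate these roles.

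Factors that finish the small subunit were led by Nob1, the endonuclease that makes the last cut in its RNA. Nob1 rose from 15.6, 17.2 and 18.1 FPKM to 37.0, 43.5 and 42.6, a 2.26-fold change with narrow groups (log2 fold change 1.18, SE 0.18, adjusted p = 0.0312). Of the 4 members 3 lay above sham without overlap, against 22% of all tested genes. Ak6, an adenylate kinase of the nucleus, was at 25.8, 18.6 and 24.4 FPKM in sham and 31.8, 44.3 and 15.2 in ischemia, so that the highest and the lowest sample both came from ischemia (log2 fold change 0.31, SE 0.34, adjusted p = 0.548). The symbol Ak6 stands in 2 rows of the table, of which the one on chromosome 2 carries the pathway entry.

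Assembly factors of the large subunit numbered 11, and 1 of them was called, against 5.18% of all tested genes called higher. This was Mdn1 (midasin, a very large ATPase that strips assembly factors from the precursor), which the table lists as AABR07047789, a name that stands in 3 of its rows. Its FPKM was 0.747, 0.440 and 0.689 in sham and 1.36, 3.27 and 1.91 in ischemia (log2 fold change 1.71, SE 0.32, adjusted p = 0.0398). Gnl3, the nucleolar GTPase nucleostemin, had 7.34, 4.28 and 8.70 FPKM in sham and 13.04, 48.4 and 27.2 in ischemia (log2 fold change 2.04, SE 0.46, adjusted p = 0.0510). Its relative Gnl3l had 22.1, 12.6 and 18.4 FPKM in sham and 14.4, 16.4 and 13.4 in ischemia, overlapping in FPKM and lower without overlap in scaled CPM (log2 fold change -0.33, SE 0.18, adjusted p = 0.238). Sbds, which with the GTPase Efl1 releases the last factor from the large subunit, was at 37.1, 24.3 and 39.0 FPKM in sham and 30.7, 36.5 and 35.8 in ischemia. Its log2 fold change was -0.03 (adjusted p = 0.923), and its sign changed with the scaling. The median over the group was 0.79, with 7 members above all sham samples in each ischemia sample, against 22% of all tested genes.

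Nuclear export held the most abundant transcript of the pathway. Ran, the GTPase that drives transport through nuclear pores (chromosome 12, positions 31320624 to 31323810), rose from 104.0, 90.5 and 107.3 FPKM to 249.8, 293.0 and 262.1, a 2.51-fold change (log2 fold change 1.33, SE 0.16, adjusted p = 0.0272). Nxt1, a cofactor of export receptors, rose from 9.93, 8.72 and 9.24 to 17.7, 26.9 and 20.1 (log2 fold change 1.12, SE 0.21, adjusted p = 0.0398). Of the 11 members with this role 5 were tested. Among the others, Nxf2 had 8 counts in ischemia replicate 1 alone, Nxf3, Nxf7, RGD1306195 and AABR07040617 had no counts, and the Ran-like Rasl2-9 had 4 to 34 counts per sample. Nxt2 was the only tested member with a sham mean FPKM under 0.5, and therefore passed the filter through its ischemia values.

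RNase MRP and RNase P, related enzymes that cleave precursors of ribosomal and transfer RNA and share most of their proteins, differed by subunit. Pop1 (chromosome 7, positions 73270455 to 73298239), their largest protein, had FPKM of 0.536, 0.558 and 0.624 in sham and 2.41, 3.80 and 3.24 in ischemia. This was a 5.13-fold change with 144 to 159 counts per sham library and 697 to 1003 per ischemia library (log2 fold change 2.36, SE 0.28, adjusted p = 0.0272). No other subunit was called. Pop7, the most abundant, was at 13.1, 9.86 and 15.2 FPKM in sham and 20.2, 21.3 and 19.5 in ischemia (log2 fold change 0.61, adjusted p = 0.0851). Rpp30 had a log2 fold change of 0.10 (adjusted p = 0.721), Rpp25 of -0.18 (adjusted p = 0.855) and Pop5 of -0.40 (adjusted p = 0.407). Rpp25 was at 11.7, 3.91 and 9.26 FPKM in sham and 13.3, 3.26 and 5.70 in ischemia, a spread within each group that was wider than the difference between them. The median over the 9 subunits was 0.29.

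Nucleases that trim or degrade RNA had no called member among 5 tested, against 5.18% of all tested genes called higher. Rexo2, a short-RNA exonuclease, was at 33.9, 30.0 and 40.7 FPKM in sham and 59.1, 52.1 and 67.2 in ischemia (log2 fold change 0.70, SE 0.19, adjusted p = 0.0736). Drosha, best known for cutting microRNA precursors, was at 14.2, 9.15 and 12.2 FPKM in sham and 8.13, 7.22 and 7.27 in ischemia. It was lower in every ischemia sample than in every sham sample, without passing the adjusted threshold (log2 fold change -0.72, SE 0.17, adjusted p = 0.0547). Rexo5 had 5 to 113 counts per sample and Rexo1l1-ps1 none. The ribosomal RNA genes Rn5s and Rn5-8s had at most 1 count per sample, so the RNA that these factors process was not measured here. The pseudogene AABR07068127 had 19 to 61 counts per sample and was not tested.

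**Figure D3:**
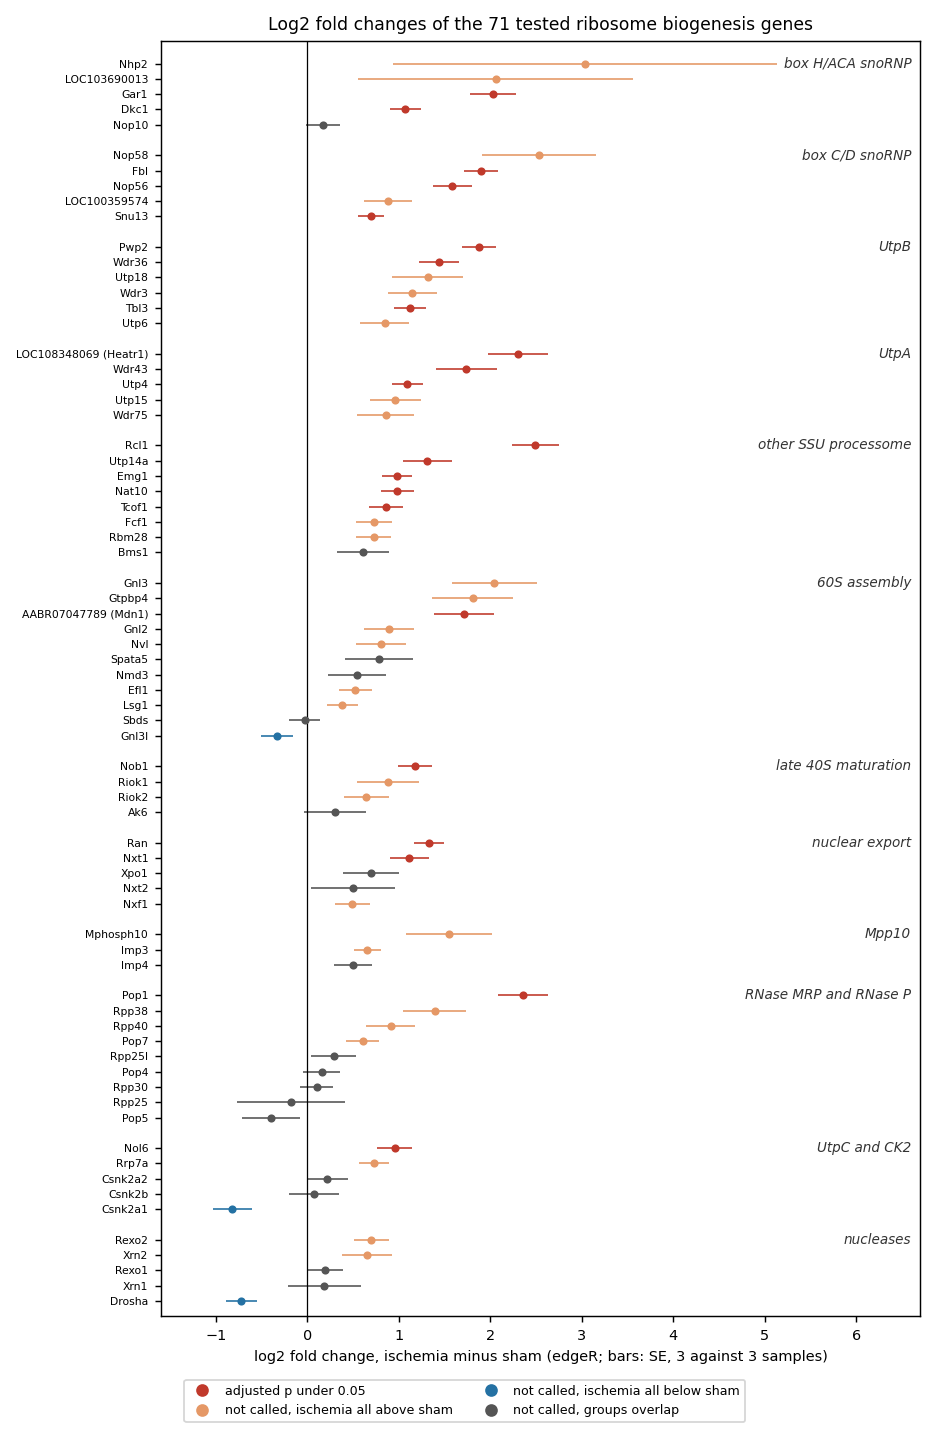
Log2 fold change (ischemia minus sham, x axis) with its SE (bars) for each of the 71 tested genes, grouped by role; colour gives the call and whether the groups overlapped in scaled CPM. Called genes are found in every group except Mpp10 and the nucleases, and the 3 genes lower without overlap are Gnl3l, Csnk2a1 and Drosha.

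The ischemia samples differed among themselves. Relative to the sham mean, the median member was higher by 0.62 on the log2 scale in ischemia replicate 1, by 1.06 in replicate 2 and by 0.82 in replicate 3, while the medians over all tested genes were -0.06, -0.02 and -0.05. Ischemia replicate 2 was the highest of the 3 in 44 members (62%, against 41% of all tested genes), and ischemia replicate 1 the lowest in 49 (69%, against 39.5%). Replicate 3 was the highest in 15 (21.1%, against 19.7%) and replicate 1 in 12 (16.9%, against 39.3%). The neutrophil and monocyte marker sum had the same order, 1307, 2039 and 8637 FPKM in replicates 1, 3 and 2, and its part in this was not tested. The difference between replicates was uneven over the members. The CPM ratio of ischemia replicate 2 to replicate 1 was 4.07 for Nop58, 3.64 for Mphosph10, 3.41 for Gnl3 and 2.44 for Wdr43. It was 0.91 for Rcl1, 0.93 for Nol6, 0.99 for Emg1, 1.08 for both Ran and Nob1 and 1.10 for Dkc1, whose groups were separate all the same. For Rpp25 and Pop5 it was 0.22 and 0.46. Among sham samples, replicate 2 was the lowest in 35 members (49.3%, against 41.3%), and this was marked in Nop58, at 300 counts against 941 and 888.

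**Figure D4:**
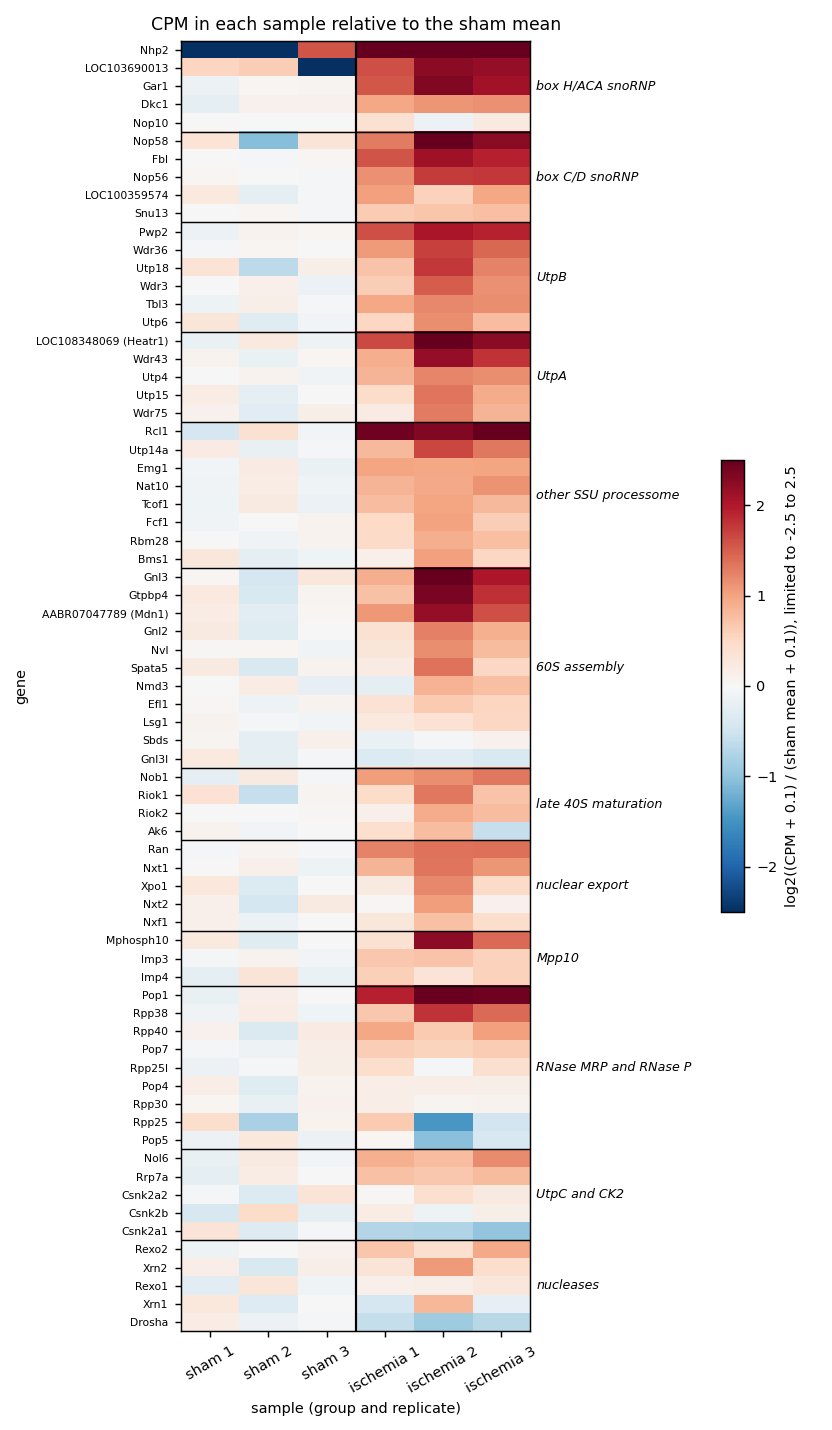
Scaled CPM of each tested gene (rows, grouped by role) in each sample (columns), as log2 of the ratio to the sham mean after adding 0.1, with colours limited to the range from -2.5 to 2.5. Ischemia columns are red for most genes, most strongly in ischemia replicate 2, and the Nhp2 and LOC103690013 rows show the sham libraries without reads in dark blue.

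Levels spanned a wide range. The mean FPKM of the tested members over all samples ran from 0.527 to 184.4 with a median of 10.97, and 40 members exceeded 10. The median member stood at 7.41, 6.28 and 8.24 FPKM in sham and at 13.04, 17.5 and 13.8 in ischemia. Over all tested genes the median was 6.5, 5.03 and 6.69 in sham and 6.32, 7.40 and 6.07 in ischemia. Members thus stood at about the level of the median gene in sham and above it in every ischemia sample. Members lie on 20 chromosomes.

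Genes of the nucleolus outside the pathway entry were set beside these members, from a list of RNA polymerase I subunits, its factors and further assembly factors. All 66 listed genes found in the table were tested, and 28 were called higher in ischemia (42.4%, against 5.18% of all tested genes), none lower by edgeR, by DESeq2 or at an unadjusted p under 0.05. DESeq2 called 47 higher (against 14.8% of all tested genes). The groups did not overlap on the higher side in 53 (against 22%), and the median log2 fold change was 1.07. Rrp12, an export and processing factor, had 897, 987 and 1145 counts in sham and 6882, 9462 and 10798 in ischemia (log2 fold change 3.11, SE 0.29, adjusted p = 0.0246). Cd3eap, a subunit of polymerase I, followed with 453, 390 and 514 against 1957, 4541 and 3371 counts (log2 fold change 2.80, adjusted p = 0.0272). Taf1d, a part of the factor that places the polymerase on its promoter, had 215, 88 and 237 counts in sham and 421, 1565 and 682 in ischemia, without a call (log2 fold change 2.24, adjusted p = 0.0655). The polymerase factors Taf1c, Taf1a, Ubtf, Rrn3, Ttf1 and Taf1b were not called either. Their log2 fold changes were 0.92, 0.66, 0.42, 0.32, 0.28 and 0.21 (adjusted p = 0.0702, 0.289, 0.161, 0.246, 0.513 and 0.705). Further subunits of the polymerase that rose were Polr1e, Polr1d and Polr1b, with log2 fold changes of 1.87, 1.31 and 1.30. The other listed subunits were not called: Twistnb, Znrd1, Polr1c and the largest subunit Polr1a had log2 fold changes of 1.81, 0.68, 0.54 and 0.29 (adjusted p = 0.113, 0.101, 0.145 and 0.454), and the groups overlapped in Polr1a. Npm1 (nucleophosmin, an abundant nucleolar chaperone) rose by 2.03, from 8338, 3851 and 7183 to 20342, 40009 and 22420 counts (adjusted p = 0.0372). The other genes called were the assembly factors Bop1, Pes1 and Wdr12, which form 1 complex of the large subunit, and Nip7, Ddx21, Ppan, Aatf, Pno1, Tsr1, Mybbp1a, Ebna1bp2, Rrp15, Rrs1, Mak16, Nolc1, Bysl, Nop16, Noc2l, Pa2g4, Wdr74, Ddx56 and Ltv1. At the low end stood Exosc10, Exosc9 and Nop53, with log2 fold changes of -0.08, -0.06 and -0.06 and overlapping groups. Exosc10 and Exosc9 belong to the RNA exosome, which degrades RNA in many places in the cell. With any sham replicate or ischemia replicate 3 left out no gene of this list was called, and 41 to 45 were higher at an unadjusted p under 0.05, against 12.7% to 15.2% of all tested genes.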

How the data were processed

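The authors deposited 1 table of Ensembl rat genes with raw counts and FPKM for each sample. Raw counts were deposited without normalization, and the FPKM values deposited beside them hold 0.0001 where no read was counted. The submitters' processing notes name STAR and HTSeq; versions, genome build and counting settings are not given in the sources used here, so positions are those of the table. Pathway membership came from the table's KEGG column. Members, roles and lists were chosen with earlier results of these data known; roles were completed from the table's gene descriptions. Genes whose FPKM averaged 0.5 or more across the 6 samples entered edgeR's quasi-likelihood test (TMM scaling, no covariates, two-sided), with Benjamini-Hochberg adjustment over all tested genes and a threshold of 0.05. The SE was derived from the F statistic. Genes were named by a rule: called members, the 10 highest and 8 lowest log2 fold changes, the most abundant and most changed member of each role, members not tested, and repeated symbols; for the nucleolar list, called genes and the 3 highest and lowest. Utp18, Wdr3, Utp6, Nxt2, Csnk2a2, Twistnb, Znrd1, Polr1c, Polr1a, Taf1c, Taf1a, Ubtf, Rrn3, Ttf1 and Taf1b were named outside it, after their values were seen. Alternatives were DESeq2, limma on log2(FPKM) with pseudocounts of 0.01, 0.1 and 1, other filters and scalings, the replicate number as a block, leaving out each sample, and the summed Nhp2 rows. Total counts per sample ranged from 68529126 to 79591989. Figures were drawn with matplotlib 3.10.9 in Python 3.11.15, and models were fitted in R 4.3.3 with DESeq2 1.42.0, limma 3.58.1 and edgeR 4.0.16.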

Additional observations from a re-analysis of the deposited data

How the results depend on the processing

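The median log2 fold change of the members stayed between 0.69 and 0.97 under every alternative, and 49 to 54 members did not overlap on the higher side (against 21% to 30.2% of all tested genes), or 43 of 61 with a mean FPKM of at least 5 (24.4%) and 52 of 78 without a filter (16.9%). Calls were 42 higher and 2 lower with DESeq2, 24 and 1 with a mean FPKM of at least 5 (61 members; 8.89% of all tested genes higher), 17 and 0 without a filter (78 members; 2.40%), and 19 to 22 higher with the other scalings and limma (3.65% to 6.09% of all tested genes). Leaving out 1 sample gave 0 to 37 higher and 0 to 1 lower calls, the 1 lower without ischemia replicate 1. Of the nucleolar list DESeq2 called 47, and leaving out 1 sample gave 0 to 40. With the replicate number as a block, 0 members and 0 genes of the nucleolar list were called, 34 members were higher at an unadjusted p under 0.05 (against 13.1% of all tested genes), and no gene of the table passed. Same-numbered samples did not deviate together (correlations -0.056, -0.094 and -0.196), which gave no sign of a pairing. With 3 samples per group this cannot settle whether the numbers mark a pairing, and the labels do not say. The log2 fold change changed sign for 4 named members that were not called. With 1 sample left out, it ranged from -0.088 (without sham replicate 1) to 0.37 for Csnk2b, negative also without sham replicate 3, from -0.13 to 0.039 for Sbds, positive without ischemia replicate 1, sham replicate 1 or sham replicate 3, from -0.92 to 0.20 for Rpp25, positive without ischemia replicate 2 or sham replicate 1, and from -0.0040 (without ischemia replicate 2) to 0.60 for Ak6. For Sbds it was 0.064 with limma at a pseudocount of 0.1 and 0.041 with total counts. No other of the 41 members named by the rule changed sign. Over these members and alternatives 418 values kept their side of the threshold, 128 lost the call and 16 gained it. The sign check and these counts leave out limma with pseudocounts of 0.01 and 1, and the summed rows for all but Nhp2. For Wdr43, Utp14a, Nxt1, Nat10, Nol6, Tcof1 and Snu13 the call was lost without ischemia replicate 2.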
